A study of Mus musculus with 24 samples.

Results

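Antibody-drug conjugates carry a cell poison to a tumor on an antibody, so their effect depends on how much of the antigen stands on the tumor cell. The genes of 6 surface antigens that such conjugates target, or for which they have been proposed, were followed here through the BURP bladder tumors of the mouse. They were Nectin4, Epcam, Cd276, F3, Slitrk6 and Ceacam1, found by matching Ensembl identifiers to gene symbols, and make up 6 of the 53465 genes in the table. The rule for members used no measured value, though they were chosen with earlier results of these data known. All 6 passed the filter on low counts over the 24 tumors.

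The tumors came from C57BL/6NTac mice that drank water with 0.1% BBN (a nitrosamine bladder carcinogen) from 8 weeks of age for at most 36 weeks. Bladder tumors were grown on under the skin of same-sex, immune-competent C57BL/6NTac hosts over several passages, and 3 tumors of each of 8 lines were sequenced. Of the 6 basal/squamous (Ba/Sq) lines, females were the donors of BURP-25BaSq, BURP-24BaSq and BURP-21BaSq, and males the donors of BURP-18BaSq, BURP-17BaSq and BURP-12BaSq. The stroma-rich line BURP-16SR and the neuroendocrine (NE)-like line BURP-19NE came from male mice. In the paper most of the 3 tumors of BURP-16SR matched the stroma-rich class, but 1 matched the NE-like class. Each line descended from a single donor mouse, and no normal bladder was analysed here. As the lines are named, the stroma-rich and the NE-like subtype were each 1 line, so subtype and line cannot be told apart. The p-values measure the spread among tumors that, within a line, share a donor. Whether a sequenced tumor came from a host given cisplatin is not stated.

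NECTIN4 is an adhesion molecule of epithelial junctions and the antigen of enfortumab vedotin, a conjugate used in urothelial cancer. EPCAM is the adhesion molecule by which carcinoma cells are most often recognised, and CD276 (B7-H3) is an immune-regulatory B7 protein found on tumor cells and on cells of the stroma. Tissue factor, the product of F3, is the receptor that starts blood clotting, and SLITRK6 is a neuronal leucine-rich repeat protein that has been tried as a target in urothelial cancer. CEACAM1 is an adhesion molecule and an inhibitory receptor of lymphocytes. RNA is only part of what sets the protein at the cell surface, which was not measured.

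Levels are given as CPM, a gene's counts scaled to 1000000 counts in the library after edgeR's TMM scaling. Levels of different genes are compared only as TPM. There counts are divided by the merged length of all annotated exons of the gene, then scaled to 1000000 over protein-coding genes, without TMM. Libraries held 9295708 to 25370320 counts. A floor of 3 counts in a library stood for 0.106 to 1.33 CPM, depending on the tumor. These floors cover counting error only. In tumor C102-M30 of BURP-25BaSq, 61.9% of counts fell in 1 gene, CT010467.1. Tumor C102-M1, labelled BURP-25BaSq, had a mean correlation of 0.959 with the tumors of BURP-21BaSq and of 0.882 with the other tumors of its own line. Comparisons and correlations of the antigens that these libraries move are given with and without them.

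The Ba/Sq tumors had keratins and other epithelial markers in quantity, and BURP-16SR and BURP-19NE had little of them. The summed level of 9 epithelial markers was between 9095 and 17886 CPM in the 18 Ba/Sq tumors, between 497 and 1133 CPM in BURP-16SR and between 176 and 262 CPM in BURP-19NE. Of 5 NE markers looked at, 4 were near 0 in BURP-19NE, where Chga reached at most 0.135 CPM, Chgb 0.180 CPM and Syp 0.541 CPM, and Insm1 had no count. Chgb and Syp were low in the Ba/Sq tumors too, at most 0.224 and 1.09 CPM, while Chga and Insm1 reached 14.0 and 1.91 CPM in them. The other, Ncam1, was at 244 to 356 CPM in BURP-19NE against 2.51 to 103 CPM in the Ba/Sq tumors. In BURP-16SR the highest levels were 14.6 CPM for Chga, 0.0769 for Chgb, 0.904 for Syp, 2.99 for Insm1 and 79.8 for Ncam1. These 5 genes were chosen after their values were seen. The paper classed BURP-19NE as NE-like from RNA. By antibody staining it reported high synaptophysin, the protein of Syp, in BURP-19NE and in BURP-16SR. With these RNA values beside that class, BURP-19NE is called by its line name below.

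In build GRCm38, Epcam lies on chromosome 17 from 87635979 to 87651129, Nectin4 on chromosome 1 from 171370099 to 171388598 and F3 on chromosome 3 from 121723537 to 121735048, all on the plus strand. On the minus strand lie Cd276 on chromosome 9 from 58524298 to 58555437, Slitrk6 on chromosome 14 from 110748580 to 110755149 and Ceacam1 on chromosome 7 from 25461707 to 25477603. The bases just before the start of 3 members are shown, because Epcam and Nectin4 fell together in both lines that are not Ba/Sq while F3 was the member that did not pass the test in BURP-19NE. They are RefSeq sequences of GRCm38.p6, read 5′ to 3′ on the plus strand, with motif matches in capitals. Epcam is shown over chr17:87635729-87635978, Nectin4 over chr1:171369923-171370098 and F3 over chr3:121723287-121723536. Bases inside a gene, by the positions above, are not printed. The window searched for Nectin4 ran on to 171370172, so its printed sequence is cut before the RefSeq start.

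Epcam: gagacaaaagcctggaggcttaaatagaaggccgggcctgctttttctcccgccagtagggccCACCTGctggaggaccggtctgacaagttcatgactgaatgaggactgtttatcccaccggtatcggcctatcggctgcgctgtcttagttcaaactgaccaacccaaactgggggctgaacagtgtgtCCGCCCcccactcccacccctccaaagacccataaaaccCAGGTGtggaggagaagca

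Nectin4: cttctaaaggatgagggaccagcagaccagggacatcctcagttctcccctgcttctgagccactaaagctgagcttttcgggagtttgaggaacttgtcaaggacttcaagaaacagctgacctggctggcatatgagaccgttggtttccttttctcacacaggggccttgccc

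F3: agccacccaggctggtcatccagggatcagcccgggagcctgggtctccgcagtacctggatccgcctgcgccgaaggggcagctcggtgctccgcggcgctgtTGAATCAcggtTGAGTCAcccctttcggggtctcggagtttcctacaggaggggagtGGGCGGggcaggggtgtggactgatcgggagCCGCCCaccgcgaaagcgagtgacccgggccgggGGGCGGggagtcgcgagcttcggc

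The motifs searched, on both strands, were the E-box CACCTG (the letters that ZEB and SNAIL repressors are known to bind), a Grainyhead-like motif AACCNGTT, the GC box GGGCGG, the AP-1 motif TGANTCA and TATAAA. Epcam held 2 E-boxes, whose first bases lay 187 and 19 bases before the start, and 1 GC box. F3 held 3 GC boxes and, at 146 and 135 bases, 2 AP-1 motifs, and Nectin4 held none of the 5. Over all 6 members and windows of 250 bases, the E-box was found in Epcam alone, against 17.2% of 32851 RefSeq windows. AP-1 was found in F3 and Slitrk6, against 6.75% of windows, and the GC box in Epcam, Cd276 and F3, against 32.7%. The Grainyhead-like motif (1.79% of windows) and TATAAA (12.4%) were in none of the 6. Cd276 and F3 had CpG-rich windows, with 29 and 24 CpG, and the others had between 3 and 8, beside a median of 6 over all windows. A match of letters is a description and shows no binding.

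**Figure D1:**
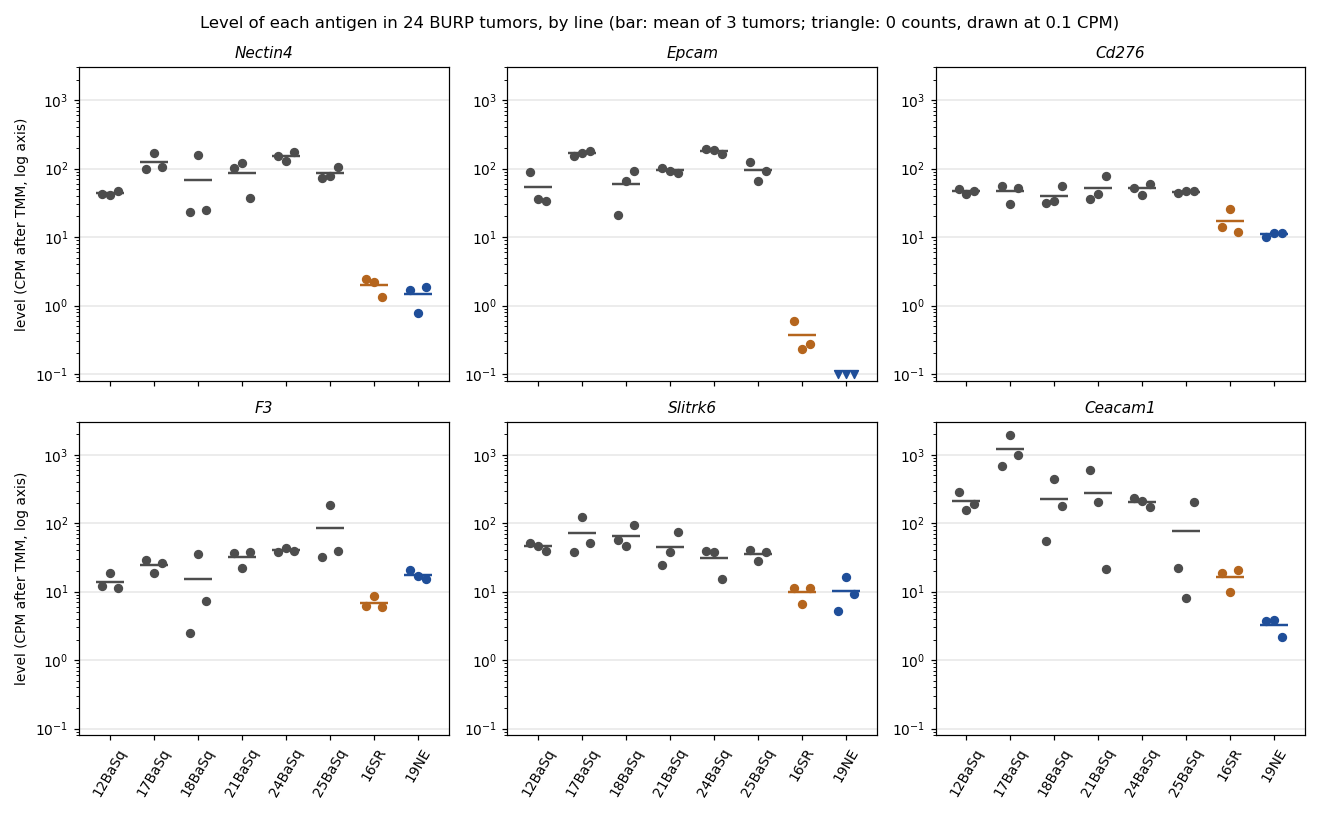
Level of each antigen in each of the 24 tumors, as CPM on a log scale, with tumors grouped by line. Epcam is at 0 in all 3 tumors of BURP-19NE and at 0.590 CPM or less in BURP-16SR, while tumors of BURP-19NE reach into the Ba/Sq range for Slitrk6 and F3, and tumors of BURP-16SR for F3 and Ceacam1.

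Epcam, Nectin4, Cd276, Slitrk6 and Ceacam1 were lower in BURP-19NE than in the 18 Ba/Sq tumors, and F3 did not pass the test. The comparison asks how far the antigens of the squamous lines are shared by BURP-19NE. Epcam had its lowest Ba/Sq level at 21.3 CPM, its median at 93.2 CPM and its highest at 190 CPM, and had 0 counts in each of the 3 tumors of BURP-19NE. With 3 counts per library as the floor, at most 0.157 CPM in these tumors, Epcam was at least 688-fold lower there (edgeR's quasi-likelihood test, adjusted p = 8.79e-08). No tumor of BURP-19NE came near the lowest Ba/Sq tumor.

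Nectin4 was at 1.67, 0.786 and 1.89 CPM in BURP-19NE, against a lowest, median and highest of 23.6, 101 and 172 CPM in the Ba/Sq tumors. The log2 fold change was −5.96 (SE 0.78, adjusted p = 5.23e-06), with no overlap. Ceacam1 was at 3.68, 3.88 and 2.21 CPM, against 8.01, 204 and 1963 CPM, a log2 fold change of −6.78 (SE 1.57, adjusted p = 0.00223). Its groups did not overlap, and the lowest Ba/Sq tumor, C102-M30, came close to BURP-19NE at 8.01 CPM.

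Cd276 was at 10.1, 11.6 and 11.4 CPM in BURP-19NE, against 30.5, 46.6 and 78.8 CPM in the Ba/Sq tumors. Its log2 fold change of −2.08 was the most tightly estimated of the 6 (SE 0.26, adjusted p = 2.98e-06), and the groups did not overlap. Slitrk6 was at 5.27, 16.3 and 9.34 CPM, against 15.5, 40.0 and 122.7 CPM, with a log2 fold change of −2.24 (SE 0.49, adjusted p = 0.00146). Tumor C80-M3 lay above the lowest Ba/Sq tumor, so these groups overlapped.

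F3 was at 20.8, 17.0 and 15.6 CPM in BURP-19NE, inside the Ba/Sq range of 2.46 to 185.5 CPM with its median of 30.7 CPM. The log2 fold change was −0.96 (SE 0.76, adjusted p = 0.340), and −0.52 (adjusted p = 0.488) without C102-M1 and C102-M30.

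In this comparison 5 of 6 members were called lower and none higher, beside 24.3% of all 20995 genes called in either direction, 15% called lower and 9.33% called higher. A call here is a Benjamini-Hochberg adjusted p under 0.05 with a log2 fold change beyond 1 in size. In 4 of 6 members the groups did not overlap, against 18.2% of all genes. The median log2 fold change of the members was −4.10, also with Epcam at its bound, and that of all genes tested was −0.14. All 5 calls held when any single tumor was left out. When the line was taken as a random effect in limma-voom, Nectin4, Epcam and Cd276 were called (adjusted p = 0.0259, 0.0361 and 0.00458), and Slitrk6 (adjusted p = 0.0702) and Ceacam1 (adjusted p = 0.198) were not. Epithelial marker levels moved with these differences, as given above. Of the 5 skeletal muscle markers 5 were called higher in BURP-19NE, with a sum of 528 CPM in C80-M1 and of 2.04 and 4.33 CPM in the other tumors of the line, against 0.127 to 29.7 CPM in the Ba/Sq tumors. Lower were 2 of 4 smooth muscle markers and 2 of 8 leukocyte markers, whose sums ran from 5.34 to 12.3 CPM and from 68.7 to 111 CPM in BURP-19NE against 11.1 to 115 CPM and 24.4 to 291 CPM. The part of these cells in the result was not tested. In bulk tumors, fewer cells with an antigen and less RNA per cell cannot be told apart.

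**Figure D2:**
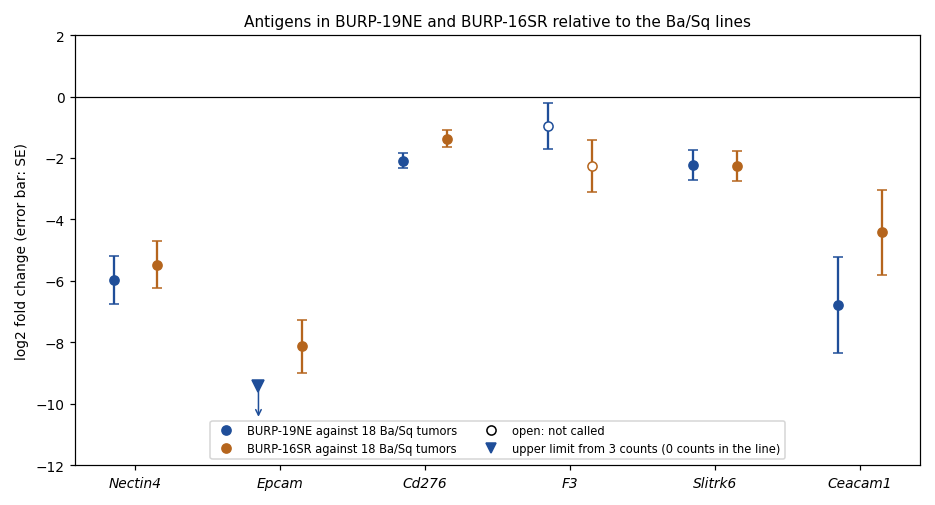
Log2 fold change of each antigen with its standard error, for BURP-19NE and BURP-16SR against the 18 Ba/Sq tumors, with open circles for values that were not called. All lie below 0, from −0.96 for F3 in BURP-19NE to −8.13 for Epcam in BURP-16SR, and the triangle for Epcam in BURP-19NE is a limit, since 0 counts allow only a bound.

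BURP-16SR showed the same 5 antigens lower than the Ba/Sq tumors, by amounts of its own. Epcam was at 0.590, 0.231 and 0.278 CPM, from 3 to 7 counts per tumor, a log2 fold change of −8.13 (SE 0.87, adjusted p = 4.50e-07). Nectin4 was at 2.44, 2.23 and 1.32 CPM, with a log2 fold change of −5.47 (SE 0.76, adjusted p = 1.82e-05). Neither antigen had a tumor of BURP-16SR near the Ba/Sq range.

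Cd276 was at 14.1, 25.9 and 11.7 CPM in BURP-16SR, a log2 fold change of −1.38 (SE 0.28, adjusted p = 0.000883), with the tumor C74-MNT close under the lowest Ba/Sq tumor. Slitrk6 was at 11.3, 6.69 and 11.5 CPM, a log2 fold change of −2.26 (SE 0.48, adjusted p = 0.00150), with no overlap. Ceacam1 was at 18.5, 9.85 and 20.6 CPM, which overlapped the Ba/Sq tumors through C102-M30 alone, the next Ba/Sq tumor being at 21.5 CPM. Its log2 fold change was −4.42 (SE 1.38, adjusted p = 0.0224). Without C102-M1 and C102-M30 it was −4.63 (adjusted p = 0.0142). The call was lost when C73-M10, C74-MNT or P5 was left out (adjusted p = 0.0844, 0.0939 and 0.0723).

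F3 was at 6.15, 8.62 and 5.98 CPM in BURP-16SR, a log2 fold change of −2.26 (SE 0.84, adjusted p = 0.0523). It passed by DESeq2 (−2.29, adjusted p = 0.00570), with all 24 tumors in 1 fit (adjusted p = 0.00890) and with a minimum of 10 counts in every tumor (adjusted p = 0.0496). It passed too when C102-M30 was left out (−1.91, adjusted p = 0.0262), and also without C102-M1 and C102-M30 (adjusted p = 0.0288). It passed as well without C41-M3 (adjusted p = 0.0488) or C47-M3 (0.0470) of BURP-12BaSq and without C148-M3 (0.0211) or P4 (0.0389) of BURP-18BaSq.

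Thus 5 of 6 members were called lower, beside 19.2% of all 21028 genes called in either direction, 8.62% lower and 10.5% higher. The groups of 4 members did not overlap, against 11.5% of all genes, and the median log2 fold change was −3.34 for the members and −0.03 for all genes. With the line as a random effect in limma-voom, Epcam alone was called (adjusted p = 0.0334). Nectin4 then had an adjusted p = 0.0557, Cd276 0.0720, Slitrk6 0.143, Ceacam1 0.370 and F3 0.491. BURP-16SR also had more vessel RNA than most tumors, with 7 endothelial markers at 253 to 373 CPM in sum against 31.1 to 425 CPM in the Ba/Sq tumors. Its 8 fibroblast markers ran from 581 CPM in P5 to 19922 CPM in C74-MNT, the tumor with the most Cd276, and the part of these cells in the result was not tested.

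Between the lines that are not Ba/Sq, F3 and Ceacam1 went opposite ways. F3 was lower in BURP-16SR, with a log2 fold change of −1.26 (SE 0.24, adjusted p = 0.00909), and Ceacam1 was higher, with 2.41 (SE 0.37, adjusted p = 0.00443). Cd276 was higher in BURP-16SR by 0.75 on the log2 scale but did not pass (adjusted p = 0.125), nor did Nectin4 (0.55, adjusted p = 0.372) or Slitrk6 (0.02, adjusted p = 0.980). With a tumor left out the difference of Cd276 ran from 0.30 to 0.94 (adjusted p from 0.0380 to 0.332). Its tumors were barely apart in CPM, with P5 at 11.68 and C80-M3 at 11.63. In TPM, P5 at 17.38 lay under every tumor of BURP-19NE, the lowest being at 17.41. Epcam was too low to be tested, at 3 to 7 counts in each tumor of BURP-16SR and none in BURP-19NE. Of the 5 members tested 2 were called, beside 23.6% of 17556 genes, and 3 did not overlap, which held for 51.4% of genes. The median log2 fold change was 0.55 for these members and 0.06 for all genes. Both calls were lost when all 24 tumors shared 1 fit (F3 adjusted p = 0.124, Ceacam1 adjusted p = 0.0855).

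Per length of merged exons, the antigen that stood highest differed between the subtypes. This length was 5806 bases for Ceacam1 and 2195 for Epcam, and the order of these antigens depends on it. Among the 18 Ba/Sq tumors Ceacam1 was the highest of the 6 in 8 tumors and Epcam in 8, and F3 led in C102-M30 with 402 TPM and Slitrk6 in C148-M3 with 78.5 TPM. F3 was the highest in 3 of 3 tumors of BURP-19NE, at a mean of 44.2 TPM ± 6.69 (SD, n = 3), ahead of Cd276 at 18.9 TPM ± 1.40 and Slitrk6 at 15.2 TPM ± 7.77. In BURP-16SR, Cd276 was the highest in 2 tumors, with a mean of 28.6 TPM ± 13.2, and Ceacam1 in P5. In 7 of the 24 tumors the order per length and the order in CPM gave a different leader.

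Set among all protein-coding genes of the same tumor, each antigen had a higher median over the Ba/Sq tumors than in BURP-19NE or BURP-16SR. The median percentile over the 18 Ba/Sq tumors was 97.6 for Epcam, 96.7 for Ceacam1, 95.1 for Nectin4, 88.3 for Cd276, 86.7 for F3 and 83.4 for Slitrk6. In BURP-19NE, F3 was at a median percentile of 77.4, Cd276 at 63.9, Slitrk6 at 59.3, Ceacam1 at 49.0, Nectin4 at 46.8 and Epcam, with 0 counts, at 13.7. In BURP-16SR the highest was Cd276 at 67.0 and the lowest were Nectin4 at 44.4 and Epcam at 38.6.

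**Figure D3:**
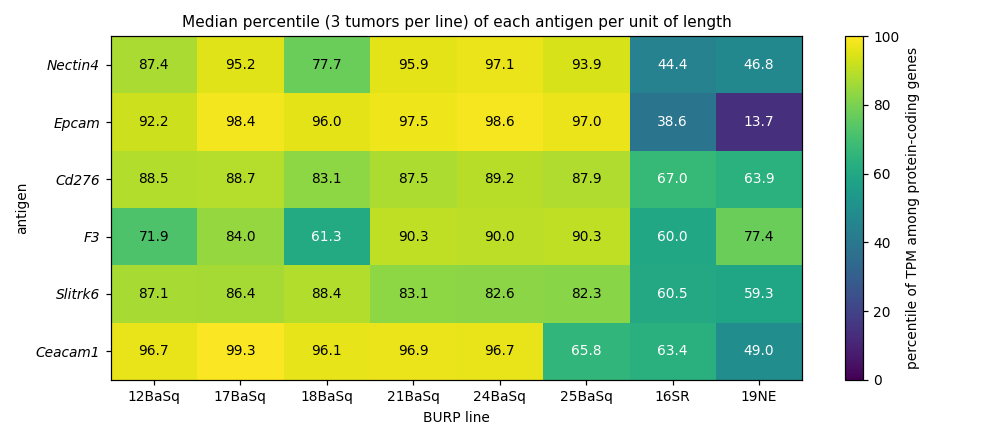
Median percentile of each antigen among protein-coding genes in each line, from TPM. Epcam stands at 92.2 or above in every Ba/Sq line and at 38.6 in BURP-16SR, and F3 at 77.4 is the highest antigen of BURP-19NE.

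Within the Ba/Sq subtype the antigens differed in how evenly the lines carried them. Cd276 was the most even: its line means ran from 40.1 CPM ± 13.1 in BURP-18BaSq to 52.7 CPM ± 22.9 (SD, n = 3) in BURP-21BaSq, and lines held 14.1% of its sum of squares on the log2 scale. Epcam was the member most set by line, with 69.9% of its sum of squares between lines. BURP-24BaSq and BURP-17BaSq stood above the rest for it, at 179 CPM ± 14.6 and 167 CPM ± 13.3, with no overlap with the next line, BURP-25BaSq at 94.5 CPM ± 29.7. BURP-21BaSq at 94.1 CPM, BURP-18BaSq at 60.2 CPM and BURP-12BaSq at 53.4 CPM followed, each overlapping the next.

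Nectin4 ran from 152.2 CPM ± 21.6 in BURP-24BaSq through 124 CPM in BURP-17BaSq, 87.4 CPM in BURP-21BaSq, 85.2 CPM in BURP-25BaSq and 69.0 CPM in BURP-18BaSq to 43.5 CPM ± 3.30 in BURP-12BaSq. Neighbours in this order overlapped throughout. BURP-18BaSq was itself split, with 23.6 CPM in C148-M3 and 24.96 CPM in P4 but 158 CPM in C149-M3. Without C149-M3, Nectin4 was lower in that line than in the other Ba/Sq lines by −2.02 on the log2 scale (adjusted p = 0.0421), against −0.51 (adjusted p = 0.563) with it.

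Ceacam1 spread over the widest range, with line means 5.04 apart on the log2 scale and lines holding 56.8% of its sum of squares. BURP-17BaSq led with 694, 1963 and 980 CPM, all above every other Ba/Sq tumor. BURP-21BaSq held 606, 205 and 21.5 CPM, and BURP-25BaSq held 203 CPM in C102-M1, 22.3 CPM in C102-M3 and 8.01 CPM in C102-M30. In both of these lines the tumors lay far apart from each other.

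F3 was highest in BURP-25BaSq, where C102-M30 had 185.5 CPM and C102-M1 and C102-M3 had 39.7 and 31.9 CPM, so the line's lead rested on that tumor. BURP-24BaSq was steady at 38.0, 43.3 and 38.8 CPM. BURP-12BaSq was low in all tumors, at 12.3, 18.7 and 11.1 CPM, and BURP-18BaSq ran from 2.46 CPM in C148-M3 to 36.0 CPM in C149-M3. For Slitrk6 each neighbouring pair of the 8 lines overlapped, from 71.0 CPM ± 45.3 in BURP-17BaSq to 31.0 CPM ± 13.5 in BURP-24BaSq among the Ba/Sq lines.

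Tested over the 6 Ba/Sq lines together, Epcam (adjusted p = 0.0127) and F3 (adjusted p = 0.0454) differed among lines by edgeR's F test, 2 of 6 members beside 50.5% of 20523 genes. Ceacam1 (0.0511), Nectin4 (0.134), Slitrk6 (0.175) and Cd276 (0.843) did not pass. Without C102-M1 and C102-M30 the adjusted p was 0.0153 for Epcam, 0.197 for F3 and 0.0228 for Ceacam1. F3 lost its call when any 1 of 14 tumors was left out, namely all tumors of BURP-12BaSq, BURP-17BaSq, BURP-21BaSq and BURP-24BaSq, P4 of BURP-18BaSq and C102-M30, with adjusted p up to 0.167. Ceacam1 passed by DESeq2 (0.00285), without a filter (0.0346) or with a minimum of 10 counts in every tumor (0.0458). It also passed without C149-M3 (0.0392), C102-M1 (0.00658) or, in BURP-21BaSq, P4 (0.0318) or P5 (0.0279). Nectin4 passed without C149-M3 (0.00154).

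When each Ba/Sq line was set against the other 5, edgeR called no member in any of them. Of the 36 values so tested, 6 had an unadjusted p under 0.05: Nectin4 and Epcam in BURP-12BaSq, Ceacam1 in BURP-17BaSq, Epcam in BURP-24BaSq, and F3 and Ceacam1 in BURP-25BaSq. Of all 20523 genes, 5126 had such a p in BURP-12BaSq, 3124 in BURP-17BaSq and 6393 in BURP-18BaSq. In BURP-21BaSq 2213 had it, in BURP-24BaSq 3723 and in BURP-25BaSq 1918. By this count the members did not stand out from all genes. The share of all genes called was 4.59% for BURP-12BaSq, 1.07% for BURP-17BaSq, 10.1% for BURP-18BaSq, 0.0195% for BURP-21BaSq, 1.65% for BURP-24BaSq and 0.273% for BURP-25BaSq. Ceacam1 in BURP-17BaSq came nearest, at a log2 fold change of 2.61 (SE 0.68, adjusted p = 0.0570), with no overlap, as in 2.36% of genes. It passed without C102-M30 (adjusted p = 0.0402) or P4 of BURP-21BaSq (adjusted p = 0.0384), and in edgeR's single fit of 24 tumors (adjusted p = 0.00690). It did not pass without both C102-M1 and C102-M30 (2.50, adjusted p = 0.0590). Nor did it pass with the line as a random effect in limma-voom (adjusted p = 0.999). DESeq2 called 1 member in BURP-12BaSq, Nectin4 at −1.27 (adjusted p = 0.0452), and 1 in BURP-17BaSq, Ceacam1 (adjusted p = 0.0228). F3 in BURP-25BaSq was higher by 1.75 (SE 0.54) at an adjusted p = 0.262, and by 0.48 (adjusted p = 0.932) without C102-M30.

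Between the sexes, with the 3 tumors of a line summed and the line as the unit, no gene was called of 21658, a share of 0%, while 1388 genes had an unadjusted p under 0.05 and DESeq2 called 232. The paper, which used DESeq2, named Y-linked genes among the top differences of its male squamous lines. These too were not called by edgeR on the line sums, a different test from the paper's. A member without a call is therefore not shown to be alike in the sexes. F3 was at 14.8, 27.4 and 15.9 CPM in the male lines and at 33.3, 42.7 and 45.1 CPM in the female lines, a log2 difference of −1.06, male minus female (SE 0.31, adjusted p = 0.700). Ceacam1 was at 224, 1103 and 247 CPM in the male lines and at 203, 216 and 101.7 CPM in the female lines, a difference of 1.596 (SE 0.68, adjusted p = 0.773). These 2 members did not overlap between the sexes, as 11.8% of all genes did not, and DESeq2 called neither of them (adjusted p = 0.185 and 0.381). Without C102-M1 and C102-M30 the differences were −0.91 for F3 and 1.84 for Ceacam1 (adjusted p = 0.972 for both). With 1 line left out they ran from −1.40 to −0.90 for F3 and from 0.44 to 1.96 for Ceacam1.

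**Figure D4:**
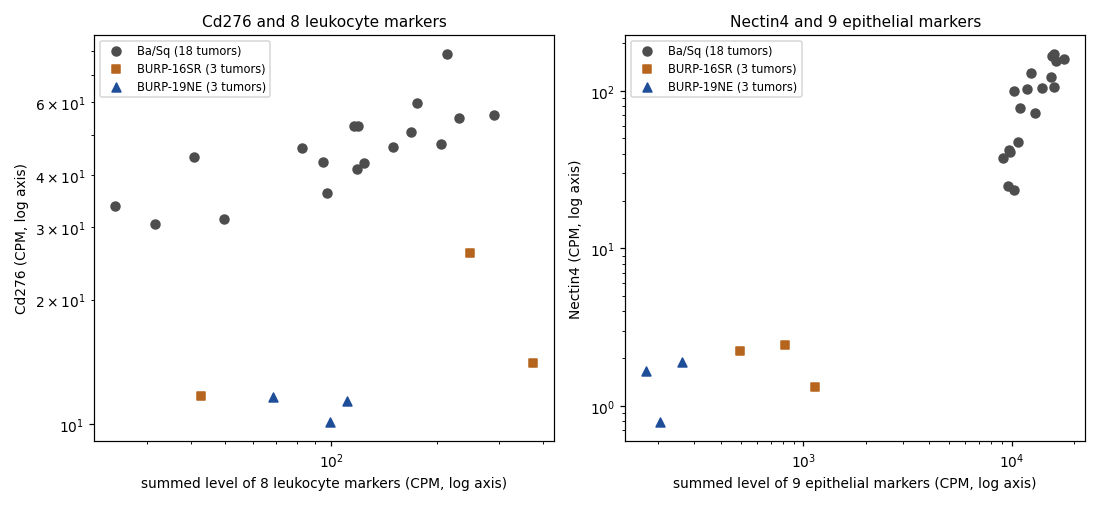
Antigen levels plotted against summed marker levels in the tumors, both in CPM on log axes, with the Ba/Sq tumors, BURP-16SR and BURP-19NE marked by color and shape. Among the 18 Ba/Sq tumors Nectin4 rises with the epithelial markers (r = 0.847) and Cd276 with the leukocyte markers (r = 0.785).

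Across the 18 Ba/Sq tumors the members fell into pairs that varied together and others that did not. These correlations of log2 CPM describe tumors that share lines, are not independent and carry no test. Nectin4 and Epcam had r = 0.679, Nectin4 and F3 0.607, and Epcam and F3 0.483, and without C102-M1 and C102-M30, over 16 tumors, 0.690, 0.734 and 0.696. Slitrk6 ran against F3 (−0.474, and −0.420 over 16 tumors), and F3 and Ceacam1 changed from −0.216 to 0.145. Nectin4 varied with the epithelial markers at r = 0.847. Cd276 varied with the leukocyte markers at 0.785, the endothelial at 0.679, the smooth muscle at 0.548 and the fibroblast at 0.505, and with the epithelial at −0.307. Over the 16 tumors without C102-M1 and C102-M30 these values were 0.862 for Nectin4 and 0.804, 0.685, 0.549, 0.518 and −0.330 for Cd276. Epcam varied most with the smooth muscle markers (0.602, and 0.604 over 16 tumors). With the epithelial markers it was at 0.446 (0.457), and with the fibroblast markers at 0.445 (0.458).

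The genes most like each member were sought by Pearson's r among 13480 protein-coding genes with a mean of at least 1 CPM over the same 18 tumors. For Nectin4 they were Ttc22 (0.937), Crb3 (0.933), a polarity protein of tight junctions, and Grhl1 (0.924), a Grainyhead-like transcription factor. For Epcam they were Fam20a (0.928), S100a10 (0.926) and Slc52a3 (0.915). Those of Cd276 included genes of antigen-presenting cells, namely Cd180 (0.850), Pou2f2 (0.826) and the class II gene H2-Eb1 (0.821). F3 was most like Zfp995 (0.867), Gli2 (0.816) and Tiparp (0.815), Slitrk6 like Rpn1 (0.801), Golt1b (0.757) and Eva1c (0.729), and Ceacam1 like Cblc (0.868), Lrmp (0.868) and Tmbim1 (0.857). Without C102-M1 and C102-M30 the 18 values ran from 0.718 for Eva1c to 0.944 for Ttc22, and for F3 they were 0.816, 0.876 and 0.784.

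The partners and relatives of the members were taken from lists that were chosen with earlier results of these data known, and are given by counts. They and the further lists below, of other antigens, of genes that bear on the poison and of epithelial regulators, are to be read beside all genes. Of all genes 15% were called lower and 9.33% higher in BURP-19NE, and 8.62% and 10.5% in BURP-16SR. Of 9 partners of EPCAM, 6 were lower in BURP-19NE and none higher, with a median log2 fold change of −3.04. Cldn7, a claudin bound by EPCAM, had 2 counts over the 3 tumors of BURP-19NE and was 875-fold lower (95% Poisson interval 242 to 7230). The membrane protease St14 fell by 8.41 on the log2 scale, and its inhibitor Spint1 fell by 6.88. The protease Prss8 was at −6.06. In BURP-16SR 5 of 9 were lower and none higher, with a median of −2.90, again led by Cldn7 (−6.88), with Prss8 at −5.42, Spint1 at −3.64 and the related inhibitor Spint2 at −3.53. With the line as a random effect, limma-voom called 4 lower in BURP-19NE, where Cldn7 and Prss8 lost their calls, and 1 higher, the tetraspanin Tspan8 (3.73). In BURP-16SR it called only Spint2.

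Of 9 nectins, nectin-like proteins and their receptors, 1 was called in BURP-19NE, Nectin1 at −2.80 (SE 0.37, adjusted p = 5.53e-06), and the median was 0.02. In BURP-16SR Nectin1 was also lower (−2.08), as was Afdn (−1.70), which links nectins to actin, while Nectin3 (2.72) and Pvr (1.77), the poliovirus receptor, were higher, and the median was 0.64. Taking line as a random effect left the same genes called, but turned the median in BURP-16SR to −0.75. Of 7 other genes of the B7 family and its kin, 3 were lower in BURP-19NE, namely Vtcn1 (164-fold lower at 2 counts, 95% Poisson interval 45.5 to 1360), Pdcd1lg2 at a log2 fold change of −2.73 and Icosl at −1.69, with a median of −1.69. In BURP-16SR 1 was called, Pdcd1lg2, and it was higher (2.52), with a median of 1.12. Cd274, which encodes PD-L1, was called in neither (−0.44, adjusted p = 0.545, and 0.29, adjusted p = 0.709), and was named after its values were seen. None of the 3 lower calls in BURP-19NE was kept with the line as a random effect, and Pdcd1lg2 in BURP-16SR was.

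Around tissue factor the medians of the lines parted, while Tfpi and F2r were higher in both. Of 10 genes of the pathway, F7 (65.1-fold lower at 1 count, 95% Poisson interval 11.7 to 2570) and F10 (log2 fold change −4.02), the clotting factors that bind and follow it, were lower in BURP-19NE, and F2r (3.37), the thrombin receptor, Tfpi (2.46), the pathway's inhibitor, and 1 further gene, F2rl1 (1.13), were higher, with a median of −1.56. In BURP-16SR 5 were higher and 1 lower, with a median of 1.81, led by Tfpi (3.26), F2r (2.66), Tfpi2 (2.66) and Thbd (2.62), which encodes thrombomodulin. With the line as a random effect, Tfpi and F2r in BURP-19NE and Tfpi, F2r and Thbd in BURP-16SR were called, all higher, and no gene of the pathway was called lower. Of 6 SLITRK relatives and receptors tested, Ptprf (−9.99) and Slitrk5 (−6.91) were lower and Ptprd (5.88) higher in BURP-19NE, and the median was −3.86, or −1.56 with the gene at 0 counts set to its bound. In BURP-16SR Slitrk1 was at 126 CPM against 1.44 CPM in the Ba/Sq tumors (6.51), Ptprd was higher (3.17) and Ptprf lower (−2.25), with a median of 0.28. Of 5 CEACAM relatives and partners tested, Ceacam19 was lower in both lines (−6.01 and −4.56) and Havcr2, which encodes TIM-3, was higher in BURP-16SR (4.49), and the medians were −0.65 and 0.36. Ceacam19, with the line as a random effect, was called in neither line and Havcr2 was still called, and the median in BURP-16SR was −0.51. Among the SLITRK relatives that fit called Slitrk1 (4.93) and Ptprd higher and Ptprf lower in BURP-19NE, and Slitrk1 higher and Ptprf lower in BURP-16SR.

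Other antigens that conjugates have been directed against moved in both directions. Of 18 tested, 9 were lower and 3 higher in BURP-19NE, with a median of −1.01, and 8 were lower and 4 higher in BURP-16SR, with a median of −0.42. Lypd3 had 1 count over 3 tumors in each of BURP-19NE and BURP-16SR, and was 8100-fold lower (95% Poisson interval 1450 to 320000) and 4880-fold lower (876 to 193000). Slc34a2 and Slc44a4, without counts in either line, were at least 28.3-fold and 25.7-fold lower in BURP-19NE, and at least 17.6-fold and 16-fold lower in BURP-16SR. Itgb6, an integrin subunit of epithelia, was lower in BURP-19NE, with a log2 fold change of −6.98. Erbb3, which encodes the receptor HER3, had a mean of 1.36 CPM in BURP-16SR against 159.7 CPM in the Ba/Sq tumors, a log2 fold change of −6.79.

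The antigens that were higher are named outside the rule for lists, after their values were seen. Msln, which encodes mesothelin, had a mean of 21.7 CPM in the Ba/Sq tumors, 262 CPM in BURP-16SR and 403 CPM in BURP-19NE (log2 fold changes of 3.67 and 4.24). Axl, a receptor kinase, had 126, 717 and 728 CPM (2.57 and 2.54), and Ror1 had 1.92, 20.9 and 8.70 CPM (3.47 and 2.15). Cldn6 was higher in BURP-16SR (4.11). Fitted with the line as a random effect, limma-voom called 1 lower and 3 higher antigens in BURP-19NE, and 2 lower and 3 higher in BURP-16SR.

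**Figure D5:**
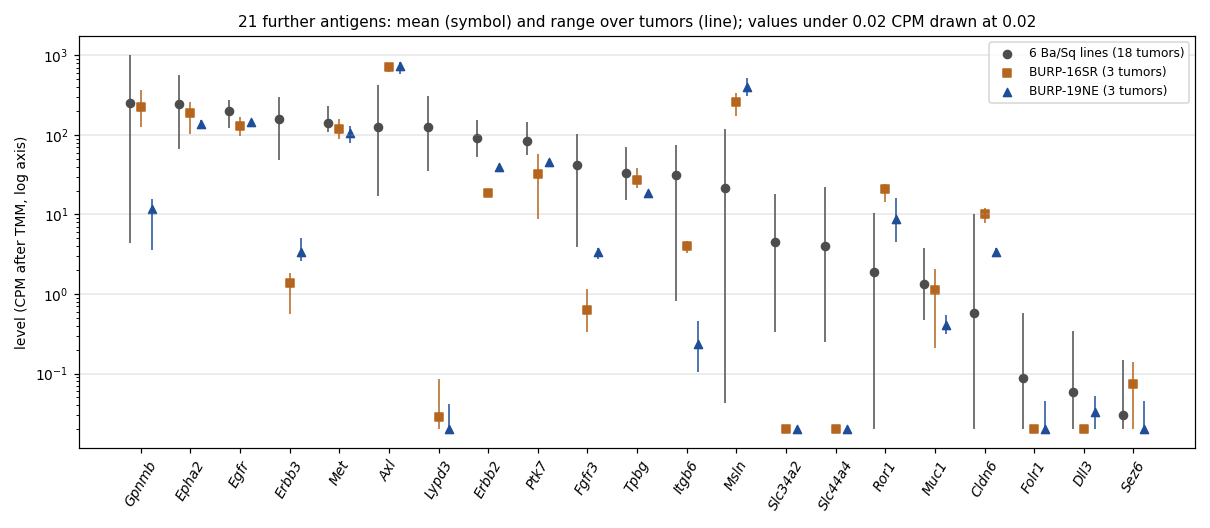
Mean levels of other antigens of antibody-drug conjugates in the Ba/Sq lines, BURP-16SR and BURP-19NE, in CPM. Erbb3 falls from 159.7 CPM in the Ba/Sq tumors to 1.36 CPM in BURP-16SR, while Msln and Axl stand higher in both lines that are not Ba/Sq.

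Genes that bear on the poison a conjugate carries, such as tubulins, lysosomal proteases and drug pumps, made up a further list. Of 19, 3 were lower and 1 higher in BURP-19NE, with a median of −0.34, and 4 were higher and none lower in BURP-16SR, with a median of 0.29. Abcb1a, which encodes the drug pump P-glycoprotein, was at 2.47 CPM ± 2.14 over the 18 Ba/Sq tumors (mean and SD), 19.7 CPM ± 6.60 in BURP-19NE and 99.8 CPM ± 64.2 in BURP-16SR, log2 fold changes of 2.99 and 5.38. Tubb3 (−3.53), Slc46a3 (−1.13) and Tubb4b (−1.08) were lower in BURP-19NE, and Abcb1b (2.17), Tuba1a (1.46) and Ctsl (1.05) higher in BURP-16SR. Fitted with line as a random effect, limma-voom called Abcb1a alone in BURP-19NE, and Abcb1a and Abcb1b in BURP-16SR.

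Of 16 regulators of the epithelial state, 10 were lower and 3 higher in BURP-19NE, with a median of −6.06, or −4.71 with genes at 0 counts at their bound. The splicing factor Esrp1 was at least 1100-fold and the Grainyhead-like factor Grhl3 at least 426-fold lower, Elf3 was 9630-fold lower at 1 count (95% Poisson interval 1730 to 380000), and Grhl2 fell by 9.51 on the log2 scale. In BURP-16SR 9 were lower and 4 higher, with a median of −4.24, and Grhl3 was at least 265-fold lower, Esrp1 6800-fold lower at 1 count (1220 to 269000), Grhl2 1260-fold lower at 3 counts (432 to 6130), and Elf3 fell by 9.59 on the log2 scale. The repressor Zeb1 was higher in both lines (3.14 in BURP-19NE and 2.93 in BURP-16SR). With the line as a random effect, 5 were called lower and 3 higher in BURP-19NE, and 5 lower and 2 higher in BURP-16SR. Zeb1, Esrp1 and Grhl2 kept their calls in both lines, and Elf3 and Grhl3 lost theirs. The called genes of these lists kept their sign with DESeq2's size factors, whose median over all genes was −0.17 in BURP-19NE and −0.04 in BURP-16SR. With TMM these medians were −0.14 and −0.03. A shift so small could hardly turn the sign of a change beyond 1, so this is no check of the calls.

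Other transcripts overlap 2 of the members, and the setting for strand is not given in the sources used here. The antisense gene 4732471J01Rik at Ceacam1 held 6 to 162 counts per tumor, Gm10657 at Cd276 held 1 to 42, and the paralog Ceacam2 held 1 to 69, so that reads may be divided among them. Ceacam1 itself had as few as 18 counts, in C102-M30, and F3 18 counts in C148-M3.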

How the data were processed

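RNA of 24 tumors, 3 from each of 8 BURP lines, was analysed. Libraries were made after depletion of ribosomal RNA and read from both ends on a NovaSeq. The authors aligned the reads with STAR 2.6.0a to GRCm38 with a GENCODE annotation, and deposited estimated counts per gene from RSEM 1.3.1, with no normalization or filter stated. Of these expected counts 12.5% were not whole, and they were rounded. RSEM shares out a read that maps to more than 1 gene, which can move counts between paralogs. CASAVA 1.8.2 is named in the submitters' processing notes. Gene symbols were found for 99.8% of identifiers. Line came from the sample labels, subtype and donor sex from the study's text.

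Tests used R 4.3.3 with edgeR 4.0.16 (TMM, filterByExpr, glmQLFit and glmQLFTest, not robust), with p adjusted over all genes tested, and calls at an adjusted p under 0.05 and a log2 fold change beyond 1. The sexes were compared on counts summed per line. Alternatives were DESeq2 1.42.0 and its size factors, other filters, a single fit of 24 tumors, limma 3.58.1 (voom, line as random effect), CPM without TMM, and each tumor or line left out. Leaving out C102-M1 and C102-M30 was added after the data were seen. The fits were tested on simulated counts. TPM used exon length over protein-coding genes, and percentiles were taken among those genes. Promoter windows and motifs were read with Python 3.11.15.

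The members and the 9 other lists were chosen with earlier results of these data known. Named were all members, at most 4 called genes of a list in a comparison by size of change, and the 3 genes most like each member. Some genes are not reported here and were left out of these lists. Precision is limited by 3 tumors per line and the depth given in the results. Intervals for genes with few counts are exact Poisson at 95%.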

Additional observations from a re-analysis of the deposited data

How the results depend on the processing

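The number of antigens called was identical under 56 and within 1.5 times under 64 of 73 alternatives that kept all tumors or left out C102-M1 and C102-M30. It was identical under 155 and within 1.5 times under 164 of 180 that left out 1 tumor or line. Many of these matches were of 0 with 0, since no antigen was called for any single Ba/Sq line or between the sexes. These counts therefore say little about how firm the calls were. limma-voom, in which line was a random effect, called 3 in BURP-19NE and 1 in BURP-16SR against the Ba/Sq lines. A single fit of 24 tumors called 1 member (Epcam) in BURP-16SR against BURP-19NE, 1 in BURP-12BaSq, 1 in BURP-17BaSq, 1 in BURP-24BaSq and 1 in BURP-25BaSq, and DESeq2 called 1 in BURP-12BaSq and 1 in BURP-17BaSq. With a tumor left out, between 5 and 5 were called in BURP-19NE, 4 and 6 in BURP-16SR, 2 and 2 between these lines, 0 and 1 in BURP-17BaSq and in BURP-18BaSq, 1 and 4 among the 6 Ba/Sq lines, and 0 in the other comparisons. The difference of Slitrk6 between BURP-16SR and BURP-19NE, near 0 throughout, reversed to −0.0015 with DESeq2's size factors, −0.0016 with DESeq2, −0.0317 without a filter and −0.0686 in the single fit, and ran from −0.32 to 0.50 with a tumor left out. Epcam between these lines passed without a filter (5.71, adjusted p = 0.0260) and in the single fit (5.77, adjusted p = 0.00590), and a minimum of 10 counts in every tumor gave no value for it in BURP-19NE or BURP-16SR. The cause was not tested. Of 96 levels per line, 89 moved by less than 1 SD. Over all genes, the calls went from 5108 to 2001 with at least 10 counts and 2271 by limma-voom in BURP-19NE, and from 4029 to 1594 and 1497 in BURP-16SR. In BURP-12BaSq 941 became 2169 by DESeq2, 2370 in the single fit and 213 by limma-voom. In BURP-17BaSq 220 became 599, 1466 and 12 by the same 3, and fell by 118 with at least 10 counts. In BURP-18BaSq 2065 became 3413, 345 and 958 by the last 3 of these. In BURP-24BaSq 339 became 737, 1681 and 84. In BURP-21BaSq 4 became 360, 707 and 0, 21 without a filter, 2 with at least 10 counts and 112 without C102-M1 and C102-M30, and in BURP-25BaSq 56 became 147, 647, 0, 85, 12 and 115. Between the sexes 0 became 12 without a filter, 232 by DESeq2 and 414 with tumors as replicates. No paired analysis was possible because any pair of lines has at most 1 passage number in common in the labels. The C numbers in the labels, whose meaning is not given, are not shared between lines. The floor of 3 counts for Epcam in BURP-19NE was 0.126 to 0.157 CPM.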
